A study of Mus musculus with 6 samples.

Results

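The genes described here encode proteins that repair DNA double-strand breaks and DNA interstrand crosslinks, with the kinases that signal such damage and a mismatch repair protein. The 36 genes were listed by function and were looked up by symbol in a count table of 17551 genes. The table held 35 under the listed symbol, and Rad51d under its older symbol Rad51l3. All 36 passed the low-count filter, as did 14643 genes in all. RNA was sequenced from 6 samples of mouse neurospheres, balls of neural progenitors kept in suspension with the growth factors EGF and FGF, all on a C57BL/6 strain background. The 3 G328V libraries (replicates 1, 2 and 3) carry the genotype label ACVR1 G328V, a mutant form of this BMP receptor, and the 3 WT libraries (replicates 1, 3 and 70A) carry the label ACVR1 WT. The series calls the groups NPAC and NP. The labels do not spell out these letters, and they name no promoter, transgene, animal, age or sex behind the cultures. The comparison asked which of these genes differed in level between the 2 genotypes.

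Homologous recombination copies the intact sister chromatid into a break. BRCA1 and BRCA2 complexes act on resected DNA, further factors such as RAD54 help the invading strand, and the pathway works mainly in S and G2 phase. The Fanconi core complex adds ubiquitin to FANCD2 and FANCI at crosslinks. End joining by the KU proteins, DNA-PK, XRCC4 and ligase IV needs no template and works through the cell cycle. Neural progenitors divide fast and are known to depend on both routes, and human deficiencies in several of these genes cause microcephaly.

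The total count per library ran from 115953495 to 191115532, and levels are given as CPM, the usual scaling of counts to library size, with TMM factors. Acvr1 itself ranged from 244 to 650 CPM across G328V and from 42.4 to 100.0 CPM across WT, and these counts per gene do not show the mutant base. Xist ranged from 443 to 795 CPM across G328V and was no higher than 1.18 CPM in WT, and the Y-linked Ddx3y was at most 0.0326 CPM in G328V and at least 17.7 CPM in WT, so sex-linked expression and genotype cannot be told apart in any difference reported here. The progenitor markers Nes, Sox2 and Vim were above 91 CPM in every library, while Hes5 was at most 0.244 CPM and Fabp7 ran from 0.182 to 1313 CPM. Olig2 reached 416 CPM in WT replicate 1 but only 0.938 CPM in the highest of the other 5 libraries, and without that library the median log2 difference of the 36 repair genes was 0.17. Neuron markers summed to 23.3 to 257 CPM in G328V and 66.1 to 488 CPM in WT, astrocyte markers to 55.1 to 1671 and 33.4 to 115 CPM, and oligodendrocyte lineage markers to 14.5 to 237 and 51.9 to 432 CPM. Single genes made up most of several of the highest sums. Sparcl1 was at 1666 CPM in G328V replicate 2, where Gfap was at 0.299 CPM. Nefl was at 220 CPM in G328V replicate 1 and Map2 at 380 CPM in WT replicate 1. Fibroblast and vessel markers summed to 1.39 to 88.6 and 1.90 to 88.4 CPM, and the 5 microglia and blood cell markers in the table to at most 2.37 CPM. Their part in the repair gene levels was not tested.

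None of the 36 genes passed edgeR's test over all genes at a false discovery rate (FDR) under 0.05, where 0% of the 14643 genes passed. Xist, Ddx3y and Acvr1 did not pass it either (edgeR adjusted p = 0.254, 0.718 and 0.997). DESeq2 called all of them (DESeq2 adjusted p = 3.11e-44, 1.08e-26 and 0.0291). Not passing edgeR's test is therefore no evidence of equal levels. At an unadjusted p under 0.05 edgeR counted 1 of the 36, Fancd2, as higher and 0 as lower in G328V, against 1.88% and 2.17% of all genes. DESeq2 also called 0 of the 36 at an FDR under 0.05 (1.05% of all genes with an adjusted p), and it counted 3 at an unadjusted p under 0.05, Fancd2, Rad51ap1 and Fancg (6.95% of all genes). The limma-voom test called 0 at an FDR under 0.05 (0% of all genes) and counted 2 at an unadjusted p under 0.05, Fancd2 and Rad51ap1 (4.03% of all genes). The log2 difference, G328V minus WT, was positive for 24 genes and negative for 12, where 49.7% of all genes were positive. Its median was 0.15 over the 36 genes and -0.004 over all genes tested. The median of the 36 was 0.09 without G328V replicate 2, 0.10 without G328V replicate 1 or WT replicate 3, and at most 0.18 without any other library. The sign stayed the same in all 6 fits that left out 1 library for 21 of the 36 genes. Of the 36 genes Fancd2 alone reached a 2-fold difference, and the values ran from -0.89 for Xrcc4 to 1.11 for Fancd2. Standard errors lay between 0.23 and 0.91, with a median of 0.35.

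In 10 of the 36 genes (27.8%) the G328V and WT libraries did not overlap in level, against 9.70% of all genes tested. Brca1, Palb2, Rad51ap1, Rad54l, Fancd2, Blm and Chek1 had all 3 G328V libraries above all 3 WT libraries (5.25% of all genes), and Xrcc2, Fancg and Prkdc had them below (4.45% of all genes). The gap between the groups was narrow in all 10, from 1.00-fold for Xrcc2 to 1.14-fold for Rad51ap1. With total-count scaling in place of TMM scaling the split was 8 higher and 0 lower, against 7.91% and 2.88% of all genes, and the median of all genes moved to 0.12. Brca2 and Rad52 then joined the genes without overlap, and Palb2, Xrcc2, Fancg and Prkdc left them. Without WT replicate 1, 13 of the 36 genes did not overlap, 9 higher and 4 lower, against 11.9% and 11.8% of all genes. Upper-quartile scaling gave 7 higher and 1 lower, against 5.83% and 3.82% of all genes, and DESeq2's size factors gave 6 and 3, against 4.90% and 4.80%. Relative to the median of all genes, the median of the 36 was higher by 0.16 or 0.17 under each of these 4 scalings. A scaling multiplies all genes of a library by the same factor, so this near-constancy was fixed in advance and is no check of the difference. Among the 36 genes the sign of the difference flipped under total-count scaling for Brip1 (0.07 in place of -0.05) and Lig4 (0.02 in place of -0.09).

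**Figure D1:**
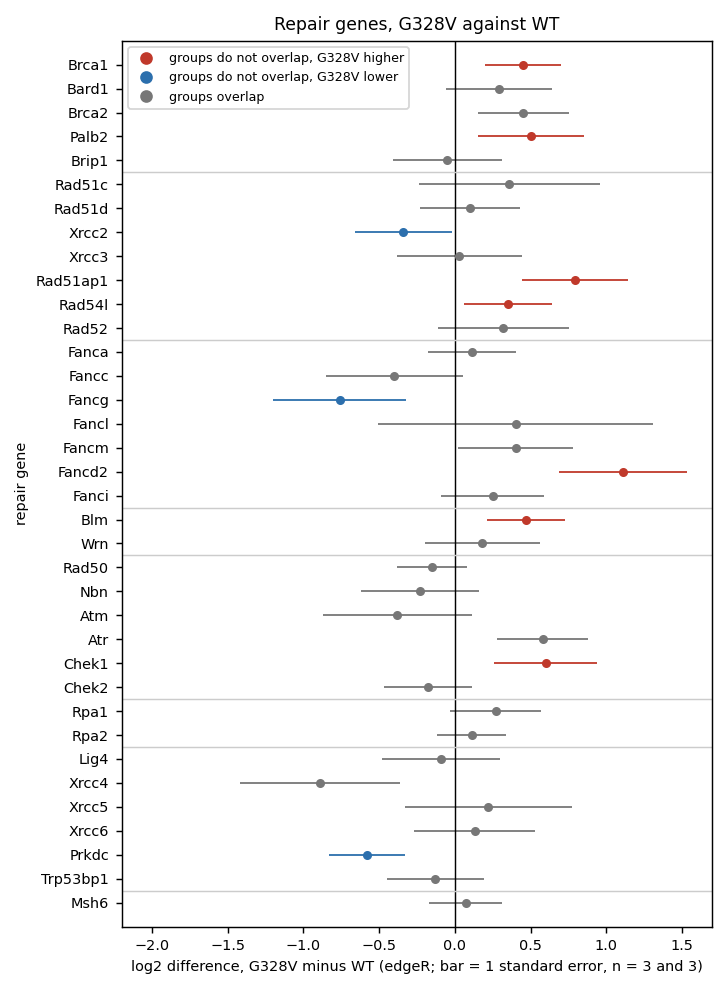
Log2 difference, G328V minus WT, from edgeR's fit (x axis) for the 36 repair genes (y axis, ordered by role), with bars of 1 standard error (n = 3 and 3). Fancd2 lies farthest to the right, at 1.11, and Xrcc4 farthest to the left, at -0.89.

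Promoters are shown for 5 of the 10 genes without overlap, 4 of those higher in G328V and 1 of those lower, chosen after their values were seen. RefSeq promoter windows, from 250 bases before to 50 bases after the start of transcription (GRCm38.p6), were found for 29 of the 36 genes, and Fancd2, Xrcc2 and Prkdc were not among them. The letters CCAAT, which the factor NF-Y binds and which are common in promoters of cell cycle genes, were found on either strand in 17 of the 29 genes. They were found in 41.1% of the 27025 genes with a window. The E2F letters TTTCGCGC or TTTGGCGC were found in 1 of the 29 (Rad51c) and in 0.929% of all genes. Other E2F forms, such as TTTCCCGC, which occurs in the Fancg bases printed below, were not searched for. The CHR letters TTTGAA or TTCGAA were found in 2 (Atr and Bard1) and in 21.7%. The E-box CACGTG was found in 2 (Rpa1 and Xrcc5) and in 8.09%. The 250 bases before the start are printed 5' to 3' in the direction of the gene, with CCAAT or its complement ATTGG in capitals.
Brca1, chr11:101551956-101552205, minus strand: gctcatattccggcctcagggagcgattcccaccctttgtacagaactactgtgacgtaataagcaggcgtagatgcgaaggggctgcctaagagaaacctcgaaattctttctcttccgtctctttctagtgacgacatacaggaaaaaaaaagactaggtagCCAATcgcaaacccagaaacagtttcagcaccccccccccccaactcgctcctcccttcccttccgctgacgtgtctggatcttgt
Rad51ap1, chr6:126939588-126939837, minus strand: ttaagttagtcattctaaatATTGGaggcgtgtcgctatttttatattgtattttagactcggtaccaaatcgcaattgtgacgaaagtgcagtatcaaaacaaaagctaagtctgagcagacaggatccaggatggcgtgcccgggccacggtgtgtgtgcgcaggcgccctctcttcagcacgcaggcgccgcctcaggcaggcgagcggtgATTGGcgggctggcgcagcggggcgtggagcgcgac
Rad54l, chr4:116123690-116123939, minus strand: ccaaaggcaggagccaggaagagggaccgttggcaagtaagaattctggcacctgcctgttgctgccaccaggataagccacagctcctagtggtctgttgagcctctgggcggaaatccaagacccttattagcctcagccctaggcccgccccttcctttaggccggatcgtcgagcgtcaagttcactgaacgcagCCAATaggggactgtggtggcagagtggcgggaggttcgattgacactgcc
Blm, chr7:80534999-80535248, minus strand: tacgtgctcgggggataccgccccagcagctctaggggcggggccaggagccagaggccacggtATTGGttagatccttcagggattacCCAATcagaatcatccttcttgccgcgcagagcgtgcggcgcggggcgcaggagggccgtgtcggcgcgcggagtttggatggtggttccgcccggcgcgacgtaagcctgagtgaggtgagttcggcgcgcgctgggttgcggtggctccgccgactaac
Fancg, chr4:43010302-43010551, minus strand: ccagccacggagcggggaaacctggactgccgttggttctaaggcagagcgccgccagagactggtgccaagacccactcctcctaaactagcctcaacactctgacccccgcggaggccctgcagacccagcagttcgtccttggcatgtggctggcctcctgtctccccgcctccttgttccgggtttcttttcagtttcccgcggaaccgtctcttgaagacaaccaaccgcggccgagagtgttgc
The first 4 hold CCAAT or its complement: Brca1 begins it 86 bases before the start, Rad54l 51 bases, Rad51ap1 230 and 36 bases, and Blm 186 and 161 bases. Fancg, lower in G328V, has none of the searched letters in these 250 bases. Chek1 and Palb2, which were higher, have none of them in the same 250 bases either, though Palb2 counts among the 17 genes over the longer window.

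BRCA1 and its partners had a median log2 difference of 0.45 over 5 genes, 4 of them positive. Brca1, which encodes a ubiquitin ligase that acts in break resection, was measured at 107, 122 and 166 CPM across the G328V libraries, against 89.1, 103 and 98.0 for WT. Values by library are given in the order of replicates 1, 2 and 3 for G328V and 1, 3 and 70A for WT. G328V replicate 3 was highest and WT replicate 1 lowest, and the lowest G328V library stood 1.04-fold above the highest WT library. Brca1 differed by 0.45 (log2), standard error 0.25 (edgeR adjusted p = 0.997), and by 0.25 without G328V replicate 3. Palb2, which joins BRCA1 to BRCA2, was measured at 15.5, 17.5 and 11.9 CPM across the G328V libraries, against 11.7, 9.77 and 10.2 for WT. G328V replicate 3 lay only 1.02-fold above WT replicate 1, and the difference was 0.50 with a standard error of 0.35 (edgeR adjusted p = 0.997). Brca2, a central gene of homologous recombination, had a log2 difference of 0.45 as well, but WT replicate 3, at 32.5 CPM, lay above G328V replicate 1, at 29.1 CPM. Bard1, the stable partner of BRCA1, differed by 0.29, and WT replicate 70A, at 73.3 CPM, lay above 2 of the G328V libraries. Brip1, a helicase that binds BRCA1, differed by -0.05, with both its highest and its lowest library in WT (41.9 and 21.3 CPM).

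Strand exchange factors had a median of 0.32 over 7 genes, 6 of them positive. Rad51ap1, whose product stimulates strand exchange, was measured at 27.3, 20.4 and 23.0 CPM across the G328V libraries, against 13.4, 9.68 and 17.9 for WT. Every G328V library was above every WT library, with the widest gap among the 10 genes without overlap. The G328V mean was 23.6 ± 3.51 CPM (SD, n = 3), the WT mean 13.7 ± 4.09 CPM, and the log2 difference of 0.79 had a standard error of 0.35 (edgeR adjusted p = 0.997). Rad54l, which encodes the motor protein RAD54, was measured at 22.2, 23.2 and 23.1 CPM across the G328V libraries, against 21.2, 14.4 and 18.1 for WT. The G328V libraries of Rad54l lay close together, and WT replicate 1 came within 1.05-fold of them. It differed by 0.35 (log2), standard error 0.29 (edgeR adjusted p = 0.997), and by 0.20 without WT replicate 3. Of its exon bases 15.4% overlap exons of Lrrc41 on the opposite strand, and no source used here says whether the counting used strand.

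Xrcc2, which acts in homologous recombination, was the only gene of this role with a negative difference. It was measured at 14.3, 16.995 and 17.55 CPM across the G328V libraries, against 17.8, 26.4 and 17.60 for WT, so that G328V replicate 3 and WT replicate 70A were almost level and WT replicate 3 stood apart. The log2 difference was -0.34, standard error 0.32 (edgeR adjusted p = 0.997), and -0.14 without WT replicate 3. Rad51c, Rad51d and Xrcc3, which act in the same pathway, differed by 0.36, 0.10 and 0.03, and Rad52, a strand annealing factor, by 0.32. The groups overlapped in each of these 4. Rad51c had its highest level in G328V replicate 2, at 11.8 CPM, and its lowest in WT replicate 3, at 3.75 CPM.

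**Figure D2:**
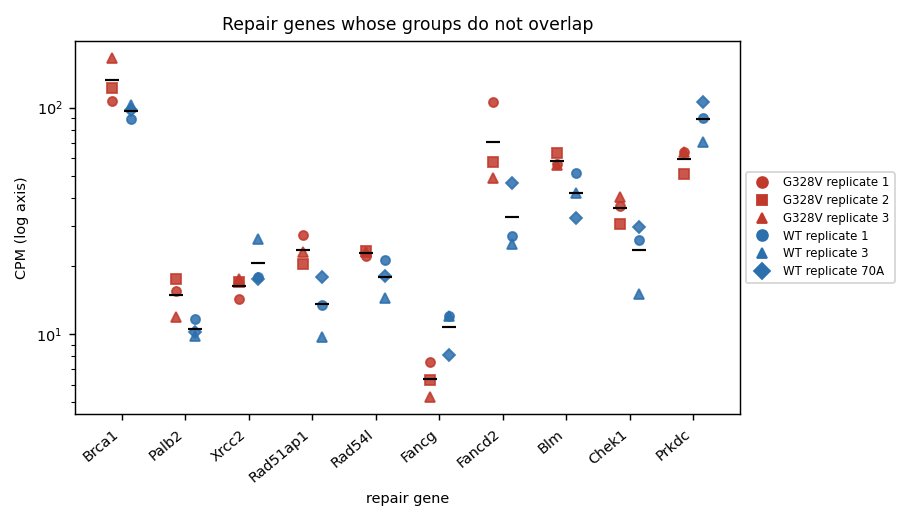
CPM on a log axis (y) of the 10 repair genes whose G328V (red) and WT (blue) libraries did not overlap. Each point is a library, marked by its replicate, and black bars are the means of 3 libraries. Brca1, Palb2, Rad51ap1, Rad54l, Fancd2, Blm and Chek1 are higher in G328V and Xrcc2, Fancg and Prkdc lower, each with a gap of at most 1.14-fold between the nearest libraries.

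Fanconi genes held both the largest positive difference and a negative one without overlap. Fancd2 (chr6:113531682-113597017, plus strand, GRCm38), the ubiquitinated clamp of crosslink repair, was measured at 106, 57.6 and 48.7 CPM across the G328V libraries, against 27.2, 24.9 and 46.3 for WT. G328V replicate 1 was far above the rest, and G328V replicate 3 and WT replicate 70A differed by 1.05-fold. The means were 70.8 ± 30.9 CPM (SD, n = 3) and 32.8 ± 11.8 CPM, and the log2 difference was 1.11, standard error 0.42 (edgeR adjusted p = 0.997). DESeq2 gave an adjusted p of 0.586, the smallest for any of the 36 genes in any fit. Without G328V replicate 1 the log2 difference of Fancd2 was 0.70, without WT replicate 1 it was 0.97, and without WT replicate 3 it was 0.93. In the first and second of these fits no repair gene kept an unadjusted p under 0.05. Fanci, which forms the clamp with FANCD2, differed by only 0.25, and WT replicate 1 held its highest level, at 45.6 CPM.

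Fancg, a core complex subunit, went the other way. It was measured at 7.54, 6.26 and 5.26 CPM across the G328V libraries, against 12.04, 12.05 and 8.11 for WT, with WT replicate 70A nearest to the G328V libraries. The means were 6.35 ± 1.14 CPM (SD, n = 3) and 10.7 ± 2.27 CPM, and the log2 difference was -0.76, standard error 0.44 (edgeR adjusted p = 0.997). DESeq2 gave Fancg an adjusted p of 0.592. The other core genes overlapped between groups. Fanca, Fancl and Fancm had log2 differences of 0.11, 0.40 and 0.40, and Fancc one of -0.40. Fancl, the ubiquitin ligase subunit, was the most variable of the 36 genes, measured at 1.66, 7.09 and 5.16 CPM across the G328V libraries, against 5.17, 0.966 and 4.42 for WT, a 7.34-fold range. The low libraries of Fancl, G328V replicate 1 and WT replicate 3, belong to both groups. Of the exon bases of Fancl 13.7% overlap exons of Vrk2 on the opposite strand, and the part of this overlap in the range was not tested.

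The RecQ helicases Blm and Wrn, which unwind recombination intermediates, differed by 0.47 and 0.18. Blm was measured at 56.6, 62.8 and 55.7 CPM across the G328V libraries, against 51.7, 42.2 and 32.5 for WT. The G328V libraries of Blm agreed closely while WT ranged more widely, and the standard error was 0.26 (edgeR adjusted p = 0.997). Without WT replicate 70A the difference of Blm was 0.31. Wrn overlapped, since G328V replicate 1 and WT replicate 1 were both low (33.8 and 32.2 CPM) and WT replicate 70A was highest (62.8 CPM).

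Break sensors and checkpoint kinases had a median of -0.16 over 6 genes, 2 of them positive, and none passed the test. Chek1, the kinase that ATR activates at stalled forks, was measured at 36.8, 30.6 and 40.3 CPM across the G328V libraries, against 26.1, 15.1 and 29.7 for WT. WT replicate 3 was the low library, and WT replicate 70A came within 1.03-fold of G328V replicate 2. The log2 difference of Chek1 was 0.60 with a standard error of 0.34 (edgeR adjusted p = 0.997), and 0.35 without WT replicate 3. Atr itself was measured at 101, 66.1 and 120.1 CPM across the G328V libraries, against 73.6, 54.2 and 65.2 for WT, so WT replicate 1 lay above G328V replicate 2. Its difference was 0.58 with a standard error of 0.30 (edgeR adjusted p = 0.997), and 0.38 without G328V replicate 3. Atm, the kinase activated at breaks, and Chek2, its target, stood at -0.38 and -0.18 (log2), the standard errors being 0.49 and 0.29. Leaving out WT replicate 3 turned Chek2 to 0.06. Atm reached 289.6 CPM in WT replicate 1, above the 91.8 to 164 CPM of the other 5 libraries, and without WT replicate 1 its log2 difference was 0.28. Rad50 and Nbn, of the complex that senses broken ends, differed by -0.15 and -0.23, with overlap in both.

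The subunits of RPA, which coats single-stranded DNA, and the mismatch repair gene Msh6 had differences no larger than their standard errors, and their groups overlapped. Rpa1 was measured at 175, 123 and 228 CPM across the G328V libraries, against 135, 173 and 129 for WT, a difference of 0.27 with a standard error of 0.30 (edgeR adjusted p = 0.997). It was 0.03 without G328V replicate 3 and 0.47 without G328V replicate 2. Both its highest and its lowest library were G328V libraries. Rpa2 differed by 0.11 and had the smallest range of the 36 genes, 1.32-fold over the 6 libraries. Msh6, which acts in mismatch recognition, was measured at 137, 130.3 and 148 CPM across the G328V libraries, against 101, 142 and 152 for WT, with WT replicates at both ends. Its difference was 0.07 with a standard error of 0.24 (edgeR adjusted p = 0.997), and -0.10 without WT replicate 1.

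End joining genes had a median of -0.11 over 6 genes, 4 of them negative. Prkdc (chr16:15637866-15842235, plus strand, GRCm38), which encodes the catalytic subunit of DNA-PK, was measured at 63.7, 50.8 and 64.0 CPM across the G328V libraries, against 89.7, 70.3 and 106 for WT. Every WT library was above every G328V library, with WT replicate 3 the nearest. The means were 59.5 ± 7.57 CPM (SD, n = 3) and 88.7 ± 18.0 CPM, and the log2 difference was -0.58, standard error 0.25 (edgeR adjusted p = 0.997). Xrcc4, the scaffold of ligase IV, had the largest negative difference, -0.89 with a standard error of 0.53 (edgeR adjusted p = 0.997), with 7.76, 4.64 and 12.9 CPM in G328V and 22.2, 11.8 and 12.8 CPM in WT. Its groups overlapped, because G328V replicate 3 lay at the level of WT replicates 3 and 70A. Lig4 and Trp53bp1, the latter encoding a chromatin factor that limits resection, differed by -0.09 and -0.13. The KU genes Xrcc5 and Xrcc6 differed by 0.22 and 0.13. Xrcc5 was at 98.9, 23.0 and 63.2 CPM in the G328V libraries, so the spread within that group covered all WT libraries.

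**Figure D3:**
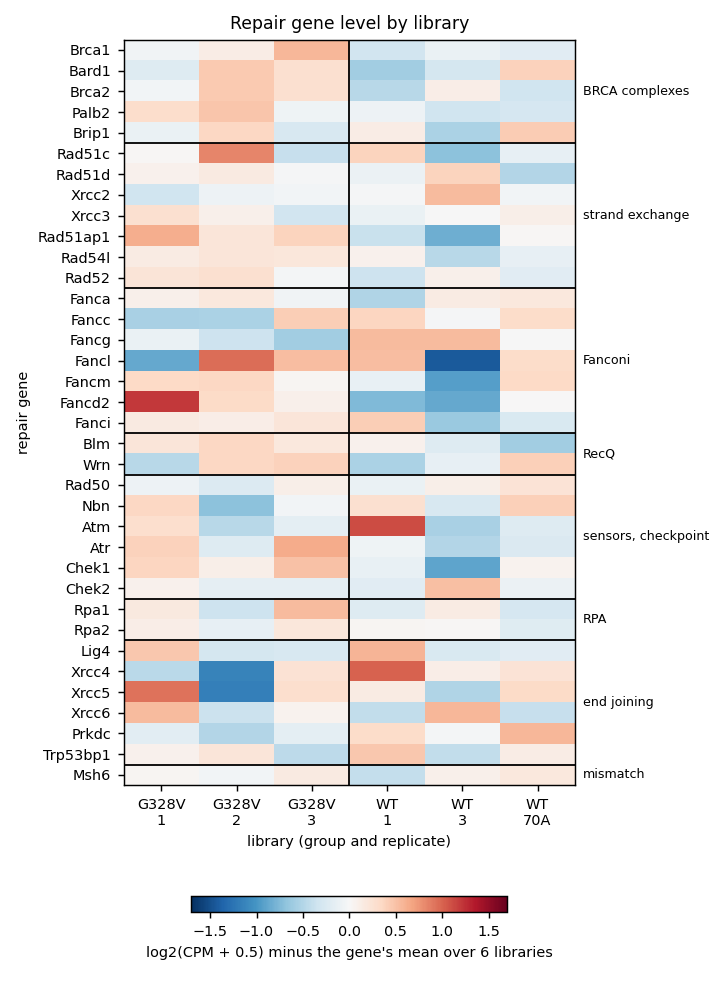
Level of each repair gene (rows, by role) in each library (columns, 3 G328V and 3 WT), as log2(CPM + 0.5) minus the gene's mean over the 6 libraries. Values run from -1.43 to 1.2. Fancd2 is highest in G328V replicate 1, Atm and Xrcc4 in WT replicate 1 and Xrcc5 in G328V replicate 1, and WT replicate 3 holds the lowest value of 12 genes.

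Per kilobase of transcript the genes covered a wide range of levels. Msh6, Rpa1 and Rpa2 were the highest, at 31.8, 31.6 and 24.9 CPM per kilobase on average over the 6 libraries, and Xrcc5 followed at 22.4. Brca1 was at 17.4, with 20.1 ± 4.65 CPM per kilobase (SD, n = 3) in G328V and 14.7 ± 1.09 in WT. Fancl, Rad51c and Brca2 were the lowest, at 1.497, 1.74 and 2.86 CPM per kilobase. The order Msh6, Rpa1 is within the spread between libraries, with SDs of 2.17 and 10.4 CPM per kilobase in G328V.

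The 36 genes varied less between libraries of a group than most genes did. The SD of log2(CPM + 0.5) within groups had a median of 0.352 over the 36 genes and 0.533 over all genes tested. The lists described below were similarly low, with medians of 0.381 for 50 other repair genes, 0.321 for 22 G1/S genes and 0.380 for 22 G2/M genes. Over the 9556 genes with a mean between 4.08 and 160 CPM, the range that the repair genes span, the median was 0.509, and 29 of the 36 lay below it. Rpa2 had the smallest SD, 0.154, and Fancl the largest, 1.01. In 20 of the 36 genes the highest library was less than 2-fold above the lowest.

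**Figure D4:**
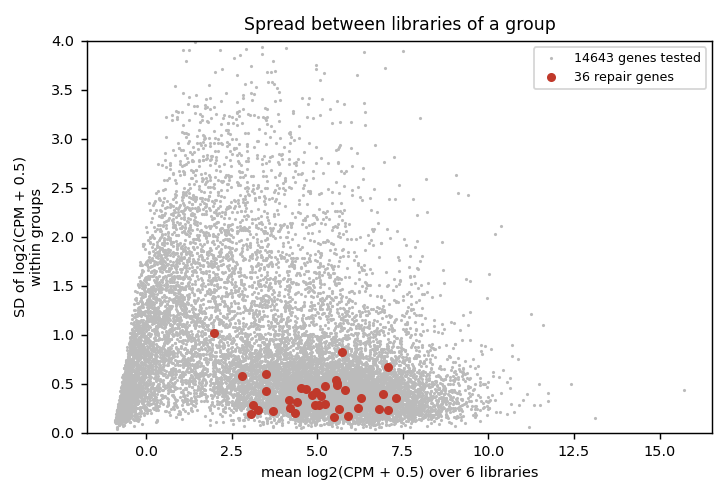
SD of log2(CPM + 0.5) within groups (y axis) against mean log2(CPM + 0.5) over the 6 libraries (x axis) for all 14643 genes tested (grey) and the 36 repair genes (red). The red points lie low in the cloud, with Fancl at 1.01 the highest of them, and 19 genes lie above the plotted range.

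Another 50 genes of the same pathways, from nucleases to checkpoint clamps, were examined too. Earlier results of these data were known when they were listed, but they were not picked by how they moved. None passed edgeR's FDR over all genes, 33 had positive differences, and the median was 0.13. Groups did not overlap for 8 of them (16.0%, against 9.70% of all genes), 6 higher and 2 lower in G328V (5.25% and 4.45% of all genes). Ercc1, a subunit of a crosslink nuclease, was the 1 gene with an unadjusted edgeR p under 0.05, and it was lower (2.17% of all genes). It was measured at 11.7, 22.01 and 18.8 CPM across the G328V libraries, against 43.4, 22.9 and 38.7 for WT, a log2 difference of -1.0 (edgeR adjusted p = 0.997). The next smallest unadjusted p-values belonged to Rad1, a checkpoint clamp subunit, at 0.72, Slx4, a nuclease scaffold, at -0.74, Atrip, the partner of ATR, at 0.50, and Tipin, a replication fork protein, at 0.67, all as log2 differences. Atrip was even within groups, measured at 27.4, 28.3 and 28.6 CPM across the G328V libraries, against 19.1, 19.3 and 21.1 for WT (edgeR adjusted p = 0.997).

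Most genes of the cell cycle lists were also higher on average in G328V, without passing the test. Of 22 genes of G1/S and DNA replication 17 had positive differences, with a median of 0.25, and of 22 genes of G2/M all 22 were positive, with a median of 0.35. None passed edgeR's FDR over all genes. Groups did not overlap for 6 of the G1/S genes (27.3%) and 3 of the G2/M genes (13.6%). All of these were higher in G328V, against 5.25% of all genes. The list level of the 36 repair genes, the mean of gene-centred log2(CPM + 0.5), came to 0.11, -0.01 and 0.09 across the G328V libraries and to 0.01, -0.21 and 0.01 across WT. For the G1/S list it came to 0.17, -0.05 and 0.19 in G328V and -0.40, 0.10 and -0.01 in WT. The lowest library was WT replicate 3 for the repair genes and WT replicate 1 for the G1/S genes. In both lists G328V replicates 1 and 3 lay above G328V replicate 2. For the G2/M list the level came to -0.10, 0.31 and 0.26 in G328V, and WT replicate 1 was lowest at -0.36. Rrm2, a ribonucleotide reductase subunit of S phase, was measured at 419, 515 and 486 CPM across the G328V libraries, against 181, 267 and 294 for WT (log2 difference 0.94, edgeR adjusted p = 0.997). The part of cycling cells in the repair gene levels was not tested, and in bulk RNA fewer cells of a kind and less RNA per cell cannot be told apart.

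**Figure D5:**
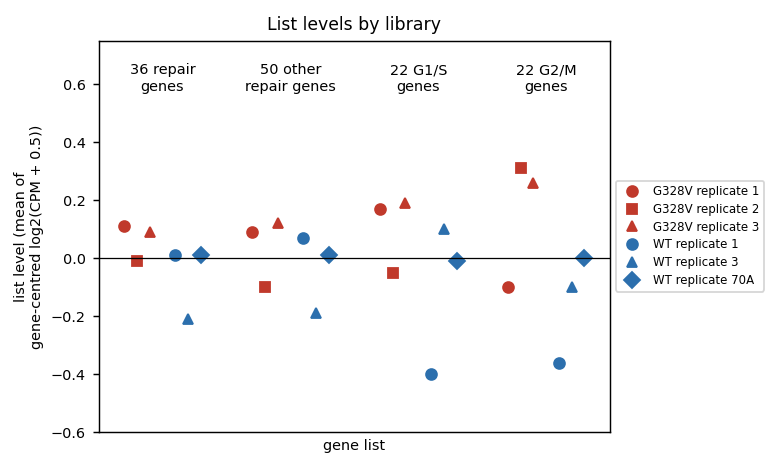
List level (y axis, mean of gene-centred log2(CPM + 0.5)) in each library for the 36 repair genes, 50 other repair genes, 22 G1/S genes and 22 G2/M genes. G328V libraries are red and WT libraries blue, marked by replicate. The groups overlap for all 4 lists, and WT replicate 3 is lowest for both repair lists while WT replicate 1 is lowest for both cell cycle lists.

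Counting could affect a few of the genes. The deposited tables gave 1.96 HTSeq counts for each Cufflinks fragment as the median of 8924 well covered genes, and 28 of the 36 repair genes lay within 0.1 of it. Xrcc3, Trp53bp1 and Xrcc4 held only 1.51, 1.59 and 1.63 counts per fragment, and Fancl held 2.25. Between libraries the counts per fragment of Fancl ran from 1.57 to 2.56. Of the 14164 exon bases of Trp53bp1, 2130 overlap Tubgcp4 on the opposite strand, and 16% of those of Fanci overlap Polg in the same way. The log2 differences of these 4 genes from the Cufflinks table were -0.13, -0.10, -0.88 and 0.28, against 0.03, -0.13, -0.89 and 0.40 from HTSeq, so Xrcc3, which was near 0, changed sign.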

How the data were processed

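RNA of 3 G328V and 3 WT neurosphere samples was depleted of ribosomal RNA and read as paired ends, per the labels' protocols. Groups follow the genotype label. The labels call the samples biological replicates without naming cultures or animals, so a p-value here reflects only how these 6 samples vary, which may be technical. The submitters' processing notes name mm10, FastQC 0.11.3, TopHat2 2.0.13 and Bowtie2 2.2.1. The authors deposited a table of HTSeq counts per gene symbol, not normalized, and a table of Cufflinks estimated counts, rounded here to whole numbers. The counting settings, use of strand and gene annotation were not stated.

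Counts of all genes were fitted in R 4.3.3 with edgeR 4.0.16 (quasi-likelihood F-test, legacy and robust fit, TMM scaling, and filterByExpr at a minimum count of 10), with Benjamini-Hochberg adjustment over 14643 genes. Standard errors come from the F statistic. DESeq2 1.42.0, limma 3.58.1 (voom), other scalings and filters, the Cufflinks table, a replicate block and leaving out each library were alternatives. The fits were tested on simulated data with differences larger than any of the 36 genes showed. That test does not tell how well differences of their size would be called. Lengths are those of the principal GENCODE M21 transcript (GRCm38). The direction of the RefSeq promoter windows was checked against transcripts: 27 of 32 windows matched in the direction of the gene and 0 in the other.

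The members, the gene lists and the rule for genes given by library (groups without overlap, unadjusted p under 0.05, or the smallest p of a role, and the 5 smallest p-values of the other repair genes) were chosen with earlier results of these data known.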

Additional observations from a re-analysis of the deposited data

How the results depend on the processing

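No repair gene, no other repair gene and no cell cycle gene passed the FDR in any of the 16 alternatives. The median log2 difference of the 36 repair genes ran from 0.09 to 0.18 when a library was left out, and it was 0.28 with total-count scaling, which also moved the median of all genes. Msh6 differed by -0.10 to 0.18 without 1 library, its sign turning without WT replicate 1. The count of repair genes at an unadjusted p under 0.05 was 0 to 2 without 1 library, 3 with DESeq2 and with total-count scaling, and 2 with limma-voom. The same count for the 50 other repair genes was 1 in the reported fit, 4 with DESeq2 and 0 to 4 without 1 library. Of all genes, 6.95% had such a p with DESeq2 and 4.03% with limma-voom. The share was not taken with total-count scaling or without 1 library, so the counts of those fits cannot be set against all genes. For the 44 cell cycle genes the median was 0.30, and 0.18 without WT replicate 1. Groups did not overlap for 9 of the 36 genes in Cufflinks values scaled to CPM, 9 higher and 0 lower, against 7.87% and 2.91% of all genes, and for 9, again all higher, in CPM over the total of all genes in the table, against 7.91% and 2.88%. Over the total of the tested genes it was 8, because Palb2 then had G328V replicate 3 and WT replicate 1 at nearly the same level in reverse order. These counts, and the one without WT replicate 1, were added after the data were seen.

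Replicate numbers 1 and 3 occur in both groups, but nothing in the labels says that they pair cultures. With the replicate number as a block the median of the repair genes was 0.23 and no call changed. Numbers 2 and 70A each occur in 1 group, so only the libraries numbered 1 and 3 inform the difference in that fit. Under the block Chek1 differed by 0.96, Blm by 0.27, Prkdc by -0.31 and Msh6 by 0.25. Deviations from the group means correlated at 0.169 for number 1 and 0.247 for number 3, but also at 0.179 for G328V replicate 2 with WT replicate 1 and at 0.22 for G328V replicate 3 with WT replicate 70A. The smallest library held 115953495 counts. Each repair gene had at least 170 counts in every library, and that lowest count was of Fancl in WT replicate 3, the deepest library at 191115532 counts.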
